A study of Mus musculus with 12 samples.

Results

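The ligand, receptor and SMAD genes of the TGF-beta pathway described here were the rows of the count table with the symbols Tgfb1, Tgfbr1, Tgfbr2, Smad2, Smad3, Smad4, Smad7 and Ski. The rule that picks them goes by name and uses no measured value, though the genes were proposed with earlier results of these data known. All 8 were among the 23337 symbols, had counts in all 12 libraries and belonged to the 12217 genes that passed the filter on low counts. Their counts ran from 148 for Smad2 in striatum 2 to 15164 for Tgfbr1 in hippocampus 3. The libraries were made from microglia, the resident macrophages of the brain, of male wild type C57BL/6N mice at postnatal day 60. There were 3 libraries each from cortex, hippocampus, striatum and cerebellum, and the labels name no treatment. Each library held 3000 live cells of the TMEM119+ gate, which were also CD45 low and CD11b+, from tissue of 3 to 5 mice. Whether the 3 pools of a region came from different animals is not stated in the labels, so each error and p-value describes library-to-library spread and may be technical.

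TGF-beta 1 is secreted in a latent form and has to be freed before it can bind its receptors. The active ligand binds the type II receptor TGFBR2, which phosphorylates the type I receptor TGFBR1, and TGFBR1 in turn phosphorylates SMAD2 and SMAD3. These join the common partner SMAD4 and regulate genes in the nucleus, while SMAD7 blocks the receptor and SKI represses SMAD complexes. In the adult brain this signal is known to keep microglia in their homeostatic state.

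Striatum 2 had the fewest counts in total (6479839) and cortex 2 the most (14833340). The summed level of 5 microglia markers, P2ry12 and Tmem119 among them, lay between 20852 and 29299 CPM (read counts scaled to a common library size with TMM factors). Markers of border-associated macrophages summed to 256 to 858 CPM, with counts for all 7 of the list in each region, and markers of astrocytes to 36.3 to 108 CPM. Mrc1 made up 90.0% of the first sum. Most of the astrocyte sum was Slc1a3, with a mean of 61.2 CPM, and each of the others averaged 5.48 CPM (Gfap) or less. Striatum 2 stood apart: 29.7% of 7662 genes averaging 20 CPM or more lay more than 1 log2 unit from their mean in the other libraries, against 2.38% to 11.9% in the other 11. Its choroid plexus markers (Ttr, Kl, Folr1 and Clic6) summed to 670.4 CPM, against 0 to 223 in the others. Results that rest on this library are given with and without it.

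All 8 genes were expressed in every region, and the receptors stood above the SMADs. Divided by exon length, so that genes can be compared, Tgfbr1 had the highest level, 141 ± 47.9 CPM per kb (SD, n = 12 libraries). Tgfbr2 followed at 56.4 ± 18.1 CPM per kb and Tgfb1 at 44.3 ± 3.92. Tgfbr1 exceeded Tgfbr2 in 12 of 12 libraries, by 1.45 to 3.25 times, and Tgfbr2 exceeded Tgfb1 in 10 of 12. Below them lay Smad4 at 23.3 ± 6.22 CPM per kb, the co-repressor gene Ski at 15.8 ± 5.88 and Smad3 at 11.2 ± 3.28. Smad2 stood at 10.1 ± 3.33 CPM per kb and the inhibitory Smad7 at 7.95 ± 3.75. The order of Smad3 and Smad2 was not settled, since Smad3 was the higher in 5 of 12 libraries. The per-length levels of the ligand and the receptors lay above the highest of Smad4, with the exception of Tgfbr2 in cortex 1, and the receptor-activated SMADs could not be ranked.

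**Figure D1:**
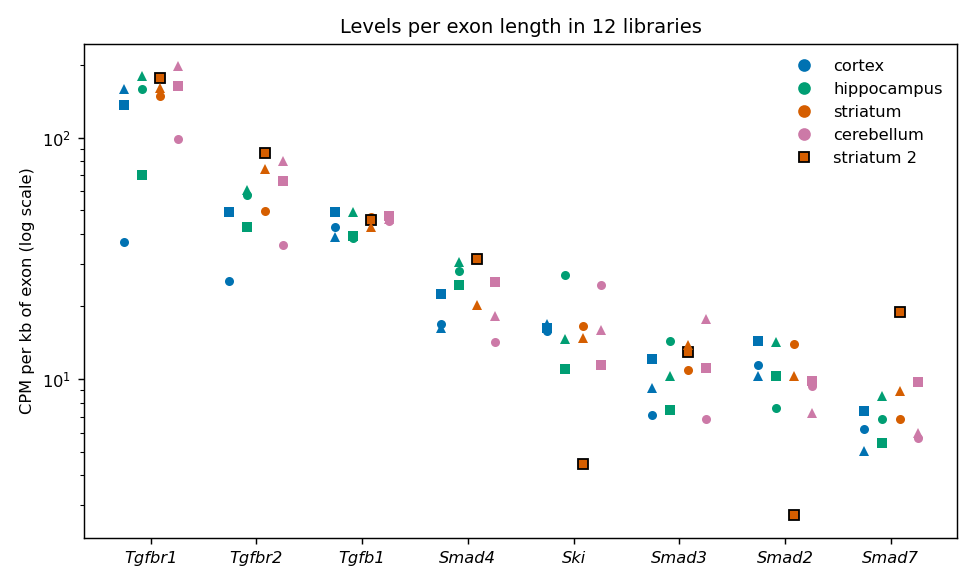
Level per exon length (CPM per kb, log axis) of the 8 genes in each of the 12 libraries, coloured by region, with circles, squares and triangles for replicates 1, 2 and 3 and a black outline for striatum 2. Tgfbr1 exceeds Tgfbr2 in every library, and striatum 2 lies far below the other libraries for Ski and Smad2 and above them for Smad7.

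Tgfb1 (chromosome 7, 25687002 to 25705077, GRCm38), the ligand gene, held nearly the same level in every library. It was at 215, 248 and 195 CPM in cortex 1, 2 and 3 and at 194, 197 and 249 CPM in hippocampus. In striatum it was at 237, 231 and 216 CPM, and in cerebellum at 227, 239 and 233 CPM. The regions overlapped throughout, and the highest library was 1.28 times the lowest. Between the regions of highest and lowest mean, cerebellum and hippocampus, the log2 difference was 0.13 (SE 0.16, 95% interval −0.23 to 0.48). It was 0.06 without hippocampus 1 and 0.25 without hippocampus 3, and over the 4 regions Tgfb1 did not pass (edgeR quasi-likelihood test, Benjamini-Hochberg adjusted p = 1.00). Its SD within regions, 0.14 on the log2 scale, was among the smallest: 1.12% of the 7662 better-expressed genes (mean of 20 CPM or more) had a smaller one (3.07% without striatum 2), and their median was 0.42. Tgfb1 was thus the steadiest of the 8 genes.

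Tgfbr1 (chromosome 4, 47353222 to 47414931, GRCm38), the signalling type I receptor, varied more between libraries of a region than between regions. It was at 241, 893 and 1041 CPM in cortex 1, 2 and 3, and at 1042, 456 and 1179 CPM in hippocampus. In striatum it was at 973, 1151 and 1048 CPM, and in cerebellum at 646, 1066 and 1290.2 CPM. Cortex 1, hippocampus 2 and cerebellum 1 lay below every other library, and the regions overlapped. The mean was highest in striatum (1057 ± 89.5 CPM) and lowest in cortex (725 ± 426; SD, n = 3 each), a log2 difference of 0.54 (SE 0.46, 95% interval −0.45 to 1.54) that fell to 0.12 without cortex 1. Tgfbr1 did not pass over the 4 regions (edgeR, adjusted p = 1.00). Its within-region SD, 0.74 on the log2 scale, was larger than that of 84.7% of those 7662 genes.

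Tgfbr2 (chromosome 9, 116084293 to 116175360, GRCm38), the ligand-binding type II receptor, was low in the same libraries as Tgfbr1. It was at 208, 405 and 402 CPM in cortex 1, 2 and 3, and at 476, 348 and 499 CPM in hippocampus. Striatum held 407, 706 and 606 CPM, and cerebellum 294, 540.2 and 654 CPM. All 3 striatum libraries lay above all 3 cortex libraries, though striatum 1 exceeded cortex 2 only narrowly. The striatum mean was 573 ± 152 CPM and the cortex mean 338 ± 112 (SD, n = 3 each), a log2 difference of 0.76 (SE 0.32, 95% interval 0.06 to 1.46). This difference did not pass over all genes (edgeR, adjusted p = 0.80, unadjusted p = 0.0359), and was 0.50 without cortex 1 and 0.58 without striatum 2. The 4-region test did not pass either (edgeR, adjusted p = 1.00).

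Smad2 (chromosome 18, 76241580 to 76310963, GRCm38), a receptor-activated SMAD, was set apart by a single library. It was at 100.5, 127 and 90.9 CPM in cortex 1, 2 and 3, and at 66.9, 90.2 and 125 CPM in hippocampus. Striatum held 122, 23.9 and 90.8 CPM, and cerebellum 82.2, 86.1 and 63.6 CPM. The value of striatum 2 was the lowest of all, 1.95 log2 units below the mean of the other 11 libraries, and 10.8% of the 7662 better-expressed genes fell further there. The 3 cerebellum libraries lay below the 3 cortex libraries, 77.3 ± 12.03 against 106 ± 18.5 CPM (SD, n = 3 each). That log2 difference was −0.46 (SE 0.45, 95% interval −1.42 to 0.51) and did not pass (edgeR, adjusted p = 1.00). Without striatum 2, the within-region SD of Smad2 was 0.32 on the log2 scale, against 0.69 with it.

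Smad3 (chromosome 9, 63646767 to 63757994, GRCm38), the other receptor-activated SMAD, followed the receptors. Its levels in cortex 1, 2 and 3 were 39.4, 67.0 and 51.1 CPM, and in hippocampus 79.6, 41.2 and 57.3 CPM. In striatum they were 60.5, 72.1 and 77.0 CPM, and in cerebellum 37.8, 61.9 and 98.1 CPM. Cerebellum held both the lowest and the highest library, so the regions overlapped. Striatum (69.8 ± 8.47 CPM) and cortex (52.5 ± 13.8; SD, n = 3 each) had the highest and lowest means, with a log2 difference of 0.41 (SE 0.36, 95% interval −0.38 to 1.20) that was 0.24 without cortex 1. Smad3 did not pass over the 4 regions (edgeR, adjusted p = 1.00).

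Smad4 (chromosome 18, 73639009 to 73703780, GRCm38), the partner shared by all receptor-activated SMADs, had the smallest p of the 8 genes over the 4 regions. Its levels were 62.8, 83.9 and 60.3 CPM in cortex 1, 2 and 3, and 104, 91.0 and 113 CPM in hippocampus. Striatum held 118, 117 and 75.2 CPM, and cerebellum 52.9, 93.5 and 67.8 CPM. The 3 hippocampus libraries lay above the 3 cortex libraries, whereas 1 striatum library fell among those of cortex. Mean levels were 103 ± 11.1 CPM in hippocampus, 103 ± 24.3 in striatum, 71.4 ± 20.5 in cerebellum and 69.0 ± 12.9 in cortex (SD, n = 3 each). The log2 difference from cortex was 0.58 in hippocampus (SE 0.27, 95% interval −0.02 to 1.17) and 0.58 in striatum (SE 0.27, 95% interval −0.01 to 1.17). Neither difference passed, nor did the 4-region test (edgeR, adjusted p = 1.00 for hippocampus, 0.80 for striatum and 1.00 over the regions, where the unadjusted p was 0.0864).

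Smad7 (chromosome 18, 75367529 to 75395935, GRCm38), the inhibitory SMAD and itself a known target of the pathway, was high in 1 library. It was at 28.1, 33.4 and 22.8 CPM in cortex 1, 2 and 3, and at 31.0, 24.5 and 38.5 CPM in hippocampus. Striatum held 30.9, 85.5 and 40.2 CPM, and cerebellum 25.7, 43.9 and 26.9 CPM. Striatum 2 lay far above every other library, and the remaining 11 overlapped across regions. The log2 difference between striatum and cortex, 0.89 (SE 0.41, 95% interval −0.01 to 1.79), was the largest among the 8 genes and fell to 0.34 without striatum 2. It did not pass (edgeR, adjusted p = 0.80).

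Ski (chromosome 4, 155154075 to 155222592, GRCm38), the co-repressor that binds SMAD complexes, was the lowest in striatum 2 as well. Its levels were 87.7, 90.6 and 93.7 CPM in cortex 1, 2 and 3, a narrow range, and 151, 61.5 and 81.5 CPM in hippocampus. Striatum held 92.2, 24.7 and 82.0 CPM, and cerebellum 137, 63.5 and 88.8 CPM. No pair of regions was free of overlap. Hippocampus (97.9 ± 46.8 CPM) lay above striatum (66.3 ± 36.4; SD, n = 3 each). Coded as striatum minus hippocampus, the log2 difference was −0.56 (SE 0.46, 95% interval −1.55 to 0.43). The excess in hippocampus was 0.17 without striatum 2 and 0.10 without hippocampus 1, and Ski did not pass over the 4 regions (edgeR, adjusted p = 1.00). Striatum 2, in which Smad2 and Ski were lowest and Smad7 highest, also had the fewest genes with a count (10929, against 12214 to 13614) and the most choroid plexus RNA by its markers (670.4 CPM). The part of either in the levels of Smad2, Smad7 and Ski was not tested.

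**Figure D2:**
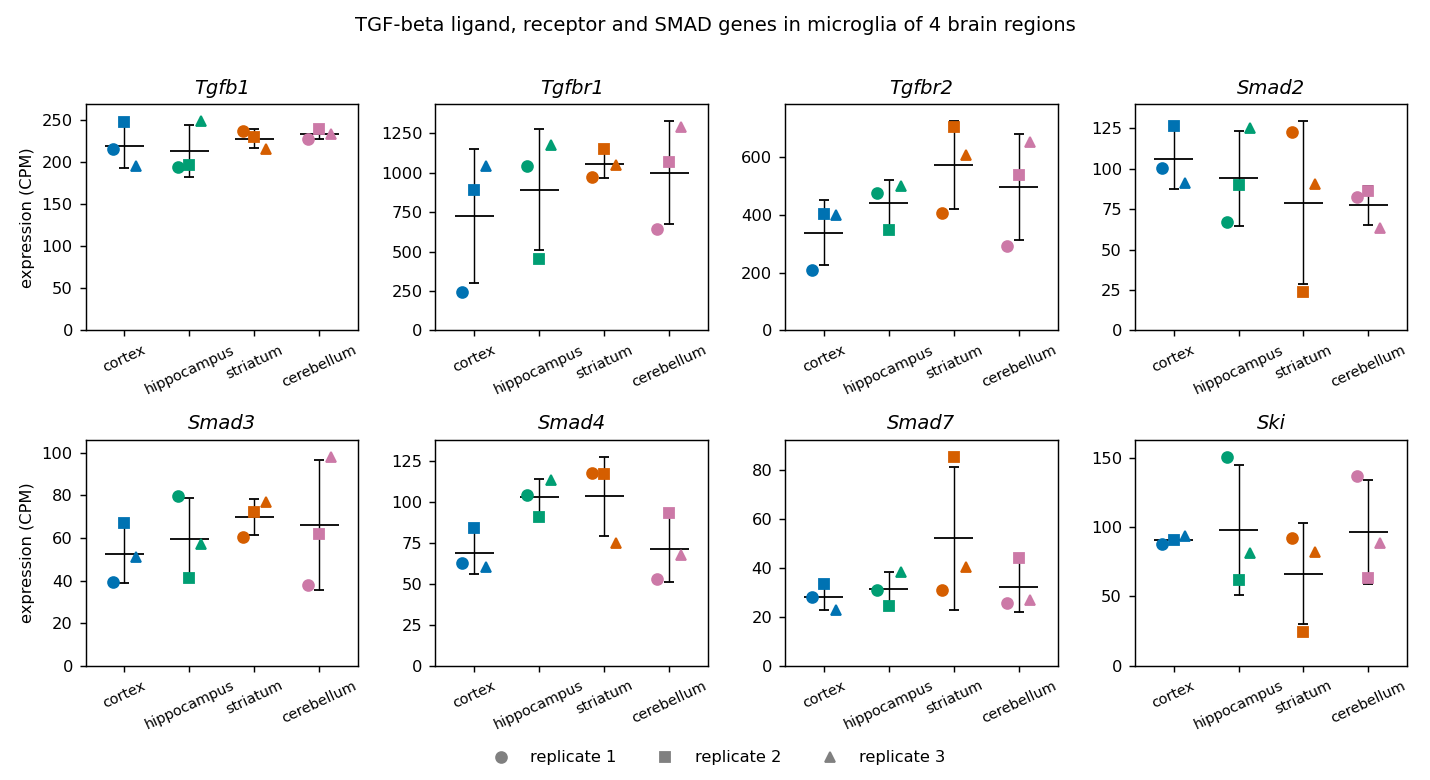
Expression (CPM, linear axes from 0) of each gene in the 12 libraries by region, with a marker for each replicate number, the region mean as a horizontal line and the SD of 3 libraries as an error bar. Tgfb1 stays between 194 and 249 CPM, whereas Tgfbr1 runs from 241 to 1290.2 CPM and striatum 2 (square) is lowest for Smad2 and Ski and highest for Smad7.

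Over the 4 regions, 0 of the 8 genes passed at an adjusted p under 0.05 (edgeR; 0% of all 12217 genes), and 0 had an unadjusted p under 0.05 (1.82% of all genes). Striatum against cortex was the comparison with the largest differences, with a median log2 difference of 0.48 over the 8 genes against −0.06 over all genes. Leaving out 1 library moved this difference to between 0.34 and 1.16 for Smad7 and between 0.12 and 0.90 for Tgfbr1. The lower values were those without striatum 2 and without cortex 1. The median was not taken again without these libraries. In striatum against cortex Tgfbr2 alone had an unadjusted p under 0.05 (5.59% of all genes did) and alone did not overlap between the regions (10.6% of all genes). In hippocampus against cortex, 0 of 8 had an unadjusted p under 0.05 (1.01% of all genes), and Smad4 did not overlap (6.69%). In cerebellum against cortex the unadjusted count was also 0 (1.55%), with Smad2 not overlapping (6.75%). Between striatum and hippocampus, cerebellum and hippocampus, and cerebellum and striatum, 0 of 8 genes had an unadjusted p under 0.05, where 4.34%, 1.28% and 2.4% of all genes did. In those pairs all 8 overlapped, against 11.5%, 7.63% and 6.34% of all genes that did not. In these edgeR tests, counts of 0 or 1 of 8 lie near the background shares and are not a result about the 8 genes. In each of the 6 comparisons 0 of 8 passed the adjusted test (0% of all genes), and 0 of 8 passed by DESeq2 or limma-voom. Their unadjusted p under 0.05 fell in striatum against cortex alone: DESeq2 gave 3 of 8 (Tgfbr2, Smad4 and Smad7; 7.56% of all genes) and limma-voom 1 of 8 (Tgfbr2; 6.52%). Same-numbered cortex and cerebellum libraries deviated together, though the labels do not say what a number stands for. Cortex 1 and cerebellum 1 were also the lowest in the balance of long and short genes given below, whose part here was not tested. The 2 regions were also fitted alone with the replicate number as a block, a fit chosen after this was seen in the same data. There 0 of 8 passed (edgeR, 0 of all genes), and Tgfbr1, Tgfbr2 and Smad2 had unadjusted p under 0.05 (7.31% of all genes), with log2 differences of 0.65, 0.54 and −0.46 (adjusted p = 0.68 each). As the model was picked on the data it tests, these unadjusted values are descriptions. The 95% intervals of the 8 genes were wide. For Tgfbr1 they ran over log2 differences from −1.07 to 1.54 in the 6 pairs, and for Tgfb1 from −0.40 to 0.48. They were thus narrower for the ligand gene than for its receptor. As they describe spread between libraries that may be technical, they set no bound on regional change between animals.

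**Figure D3:**
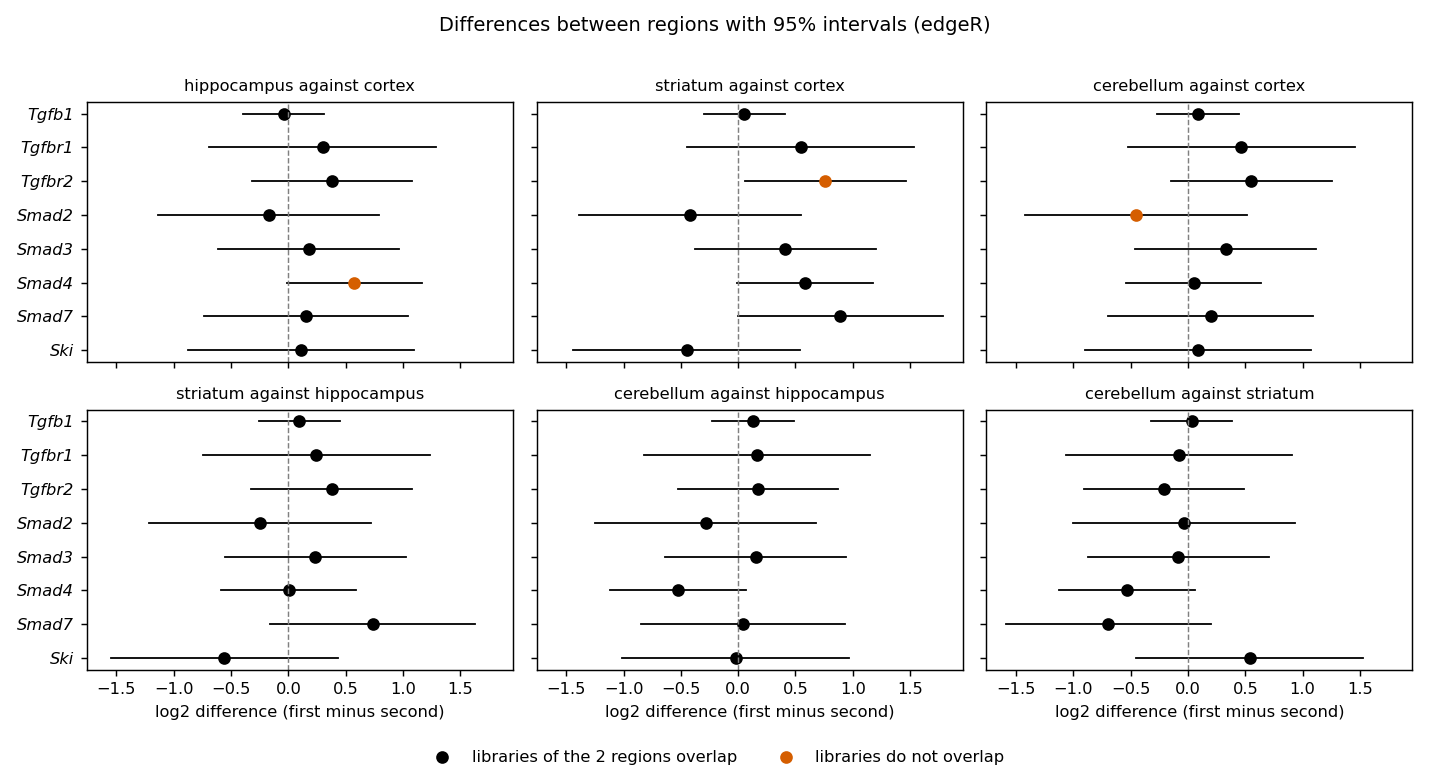
Log2 difference (first region minus second) of each gene in the 6 comparisons, with 95% intervals from the edgeR fit; orange marks genes whose libraries do not overlap between the regions. Tgfb1 has the shortest intervals, and Tgfbr2 in striatum against cortex is the only interval that does not reach 0.

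Tgfbr1, Tgfbr2 and Smad3 moved together across libraries, more closely than any of the other 5 genes moved with them. Over the 12 libraries, the Pearson correlation of log2 CPM was 0.88 between Tgfbr1 and Tgfbr2 (Spearman 0.91, and Pearson 0.89 without striatum 2). For Tgfbr2 and Smad3 it was 0.85 (Spearman 0.83, and 0.86 without striatum 2), and for Tgfbr1 and Smad3 it was 0.76 (Spearman 0.69, and 0.75 without striatum 2). Between these 3 genes and the other 5 it ranged from −0.49 (Tgfbr2 and Smad2) to 0.61 (Tgfbr2 and Smad7). The correlations of Smad2, Smad7 and Ski with each other rested on striatum 2. For Smad2 and Ski the value was 0.63 with that library and −0.32 without it, for Smad7 and Ski −0.77 and −0.28, and for Smad2 and Smad7 −0.64 and 0.27. Without the 2 libraries farthest from the median of the first gene, the values for the receptors and Smad3 were 0.85, 0.87 and 0.76 in the order given (n = 10). These points share their libraries and normalization, and the values are descriptions.

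The balance between long and short genes in a library moved with the receptors and Smad3. This balance was taken as the median log2 deviation of 4718 tested genes with at least 5 kb of exon minus that of 1469 genes under 2 kb. It was −0.83 in cortex 1, −0.47 in cerebellum 1 and −0.41 in hippocampus 2, and between −0.001 and 0.55 in the other 9 libraries. In those 3 libraries Tgfbr1 ranged from 241 to 646 CPM, against 893 to 1290.2 in the other 9. Tgfbr2 ranged from 208 to 348 CPM against 402 to 706, and Smad3 from 37.8 to 41.2 against 51.1 to 98.1 CPM. Across the 12 libraries the correlation with the balance was 0.95 for Tgfbr1 (Spearman 0.94), 0.91 for Tgfbr2 (0.88) and 0.84 for Smad3 (0.62). Without cortex 1 and cerebellum 1, the 2 libraries farthest from the median balance, it was 0.92, 0.75 and 0.73 (n = 10). The median over 3209 genes with at least 5 kb of exon and a mean of at least 20 CPM was 0.35, and 99.8%, 98.9% and 96.1% of the 7662 genes of that level lay below Tgfbr1, Tgfbr2 and Smad3. The correlation with the balance was 0.36 for Tgfb1, 0.39 for Smad4, 0.37 for Smad7, −0.20 for Smad2 and −0.22 for Ski. The exon sequence held 8781 bases for Smad2, 8187 for Tgfbr2, 6534 for Tgfbr1 and 5562 for Ski. It held 5542 bases for Smad3, 5042 for Tgfb1, 4521 for Smad7 and 3712 for Smad4. The part of exon length in these correlations was not tested. With the balance as a covariate in the fit, the log2 difference between striatum and cortex was 0.14 for Tgfbr1, 0.40 for Tgfbr2 and 0.06 for Smad3, against 0.54, 0.76 and 0.41 without it. The summed level of the 7 border-associated macrophage markers (Mrc1, Cd163, Lyve1, F13a1, Ms4a7, Pf4 and Cbr2) was also lowest in the same 3 libraries, 256 to 371 CPM against 402 to 858 in the other 9. Mrc1, itself a gene with over 5 kb of exon, made up 90.0% of that sum, at 229 to 338 CPM against 390 to 712. The other 6 markers summed to 24.3 to 33.1 CPM in the 3 libraries, within their range of 7.57 to 146 in the other 9, while the microglia markers summed to 20852 to 29299 and 21613 to 27395 CPM. The part of these markers in the result was not tested. In bulk samples, a lower level can come from fewer cells of a type or less RNA per cell, which cannot be told apart.

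**Figure D4:**
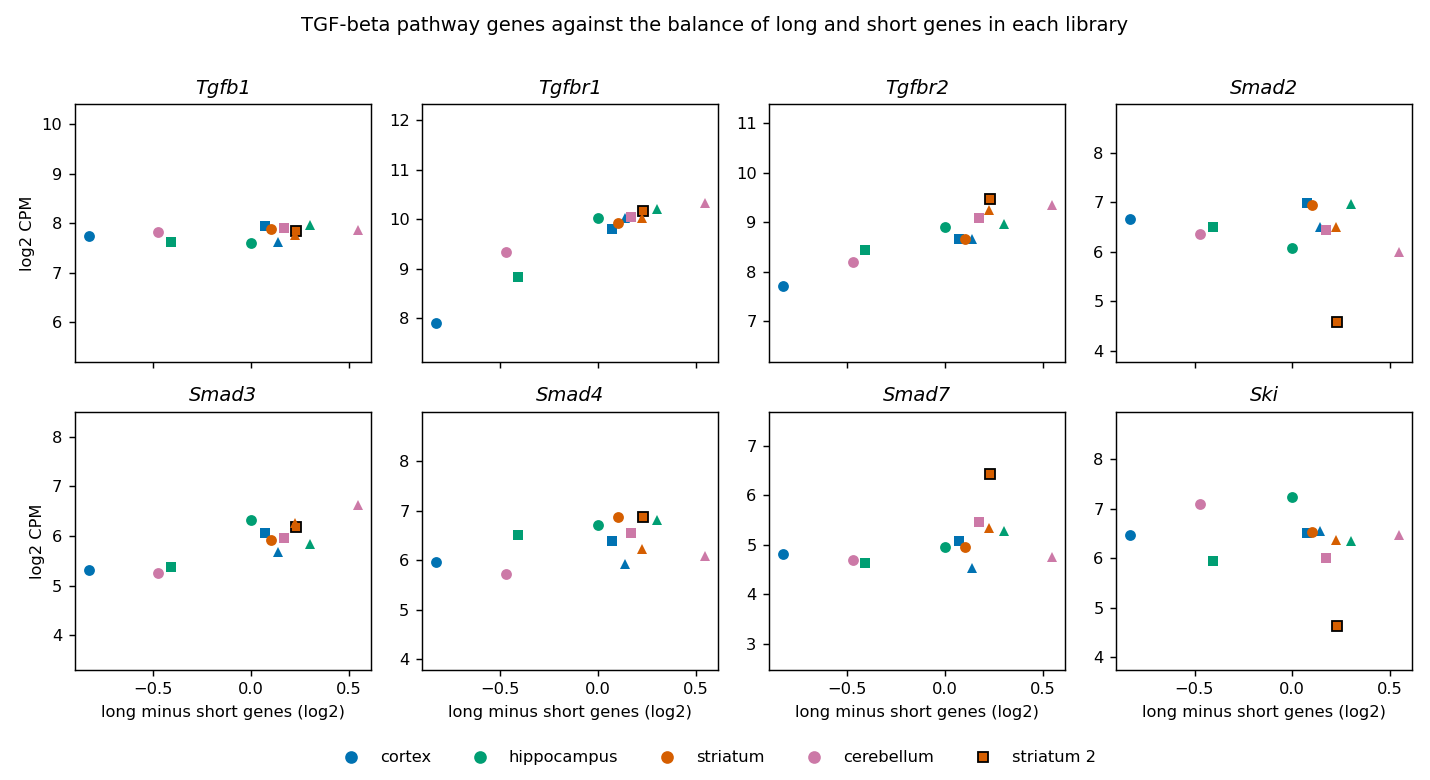
Log2 CPM of each gene (vertical axes of equal span) against the median log2 deviation of long genes minus that of short genes in the same library, coloured by region, with circles, squares and triangles for replicates 1, 2 and 3 and a black outline for striatum 2. Tgfbr1, Tgfbr2 and Smad3 are lowest in the 3 libraries at −0.83 to −0.41, whereas Tgfb1 is level and Smad2, Smad7 and Ski depart in striatum 2.

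The sequences before the start sites of the 3 genes that moved together are shown for comparison. They are the 250 bases upstream of the annotated start in RefSeq (GRCm38.p6), 5′ to 3′ on the strand of the gene, at chr4:47352972-47353221 (+) for Tgfbr1, chr9:116175364-116175613 (−) for Tgfbr2 and chr9:63757995-63758244 (−) for Smad3. Capitals mark matches on either strand to the GC box GGGCGG, the SMAD-binding element core CAGAC or the PU.1 core GAGGAA, and no matches of different motifs overlapped.
Tgfbr1: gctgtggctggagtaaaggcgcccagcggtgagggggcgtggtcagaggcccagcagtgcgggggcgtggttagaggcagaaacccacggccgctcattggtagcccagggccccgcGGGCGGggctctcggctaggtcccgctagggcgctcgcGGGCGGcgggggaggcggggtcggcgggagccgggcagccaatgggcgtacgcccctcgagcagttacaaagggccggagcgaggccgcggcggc
Tgfbr2: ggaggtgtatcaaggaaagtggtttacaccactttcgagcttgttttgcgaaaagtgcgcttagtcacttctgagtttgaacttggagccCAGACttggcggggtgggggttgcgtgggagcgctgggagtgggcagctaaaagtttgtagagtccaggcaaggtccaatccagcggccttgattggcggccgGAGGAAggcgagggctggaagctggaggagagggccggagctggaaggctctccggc
Smad3: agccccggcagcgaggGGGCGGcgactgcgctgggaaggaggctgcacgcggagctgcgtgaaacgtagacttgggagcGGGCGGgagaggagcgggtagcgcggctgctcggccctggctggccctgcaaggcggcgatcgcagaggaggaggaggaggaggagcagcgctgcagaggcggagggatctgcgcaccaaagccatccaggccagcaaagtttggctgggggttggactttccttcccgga
The windows of Tgfbr1 and Smad3 each held 2 GC boxes and neither of the other motifs, and that of Tgfbr2 held no GC box, 1 SMAD-binding core and 1 PU.1 core. Of 32851 windows of this length in the table, 32.7% held the GC box, 42.2% the SMAD-binding core and 23.3% the PU.1 core. The GC content was 74.8% for Tgfbr1, 69.2% for Smad3 and 58.4% for Tgfbr2, against a median of 52.4% over all windows. The windows of Tgfb1 and Ski, 75.2% and 87.6% GC, held 5 GC boxes each. Smad2, Smad4 and Smad7 were not among the windows used here.

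Among 7214 other genes averaging 20 CPM or more, those most like each pathway gene over the 12 libraries were found by the Pearson correlation of log2 CPM. For Tgfbr2 they were Mertk, a receptor for apoptotic cells (0.97), Tnks2 (0.97) and Slc12a2 (0.97), with 0.97, 0.96 and 0.97 without striatum 2. For Tgfbr1 they were Cttnbp2nl (0.96), Pde3b (0.96) and Abca9 (0.96). For Smad3 they were Tnrc18 (0.95), Man2a2 (0.93) and Plcb2 (0.92), and for Tgfb1 Dlst (0.89), Nomo1 (0.78) and Wdr62 (0.78). Smad4 was followed by Fubp3 (0.85), Ctage5 (0.83) and Nlrx1 (0.82), and Smad7 by Sema4a (0.94), Mknk2 (0.93) and Sart3 (0.93). For Smad2 the values were 0.97 with Tmem20, 0.95 with Spice1 and 0.94 with Sigirr, and for Ski 0.90 with Snrnp48, 0.90 with Slc35b3 and 0.90 with Rnf4. Without striatum 2 the values of Ski were 0.67, 0.65 and 0.64, those of Smad2 0.87, 0.82 and 0.75, and those of Smad7 0.88, 0.75 and 0.75. The Spearman correlation over 12 libraries was 0.68 for Tgfbr1 and Cttnbp2nl, and 0.55, 0.65 and 0.62 for the genes named with Ski. For the other named pairs it was 0.73 to 0.97. All these genes were picked as the highest of 7214 values, which are descriptions. The part of the balance of long and short genes in them was not tested.

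Of 18 genes that supply, hold or free the ligand, 11 were tested, and none passed over the 4 regions (edgeR, 0 of 11; 1 had an unadjusted p under 0.05). Over this and the following lists, 89 genes were tested in all. By edgeR 4 of the 89 had an unadjusted p under 0.05, where 1.82% of all genes had one. DESeq2 called 0 of the 89 (5 with an unadjusted p under 0.05, where 3.3% of all genes had one) and limma-voom 0 (3, where 2.29% of all genes had one). The integrin beta chain Itgb5 was at 2088 ± 267 CPM and Itgb1 at 1001 ± 167 CPM (SD, n = 12). Lrrc33, whose protein holds latent TGF-beta 1 on the surface of microglia, was at 887 ± 149.9 CPM, between 653 and 1096 in single libraries. Lrrc32, its counterpart in other cells, was found in 1 library at 1.48 CPM. Itgb8, the beta chain of an integrin known to free the latent ligand, was at 0 counts in each of the 12 libraries and so not detectable at this depth. A count of 0 leaves room for 3 counts, or 0.485 CPM in striatum 2.

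The other TGF-beta ligands were near 0 beside Tgfb1. Tgfb3 had a mean of 0.0672 CPM. Tgfb2 had 59 counts in striatum 2 (9.54 CPM), 24 in striatum 3 (1.90 CPM), 11 in cerebellum 3 (1.32 CPM), and at most 3 in each of the others. It was the gene with the unadjusted p under 0.05, and did not pass (edgeR, adjusted p = 1.00). Striatum 2 was also the library with the most choroid plexus markers, 670.4 CPM in sum, whose part in the Tgfb2 counts was not tested. Of 9 other ligands of the family, only Gdf15 was tested (1.28 ± 1.79 CPM; SD, n = 12) and it did not pass (edgeR, adjusted p = 1.00). Bmp7 had 154 counts in striatum 2 (24.9 CPM), 24 in cerebellum 3, 8 in hippocampus 2 and 0 in the other 9, and Bmp4 had 10 counts in striatum 2 and 0 in the other 11 libraries.

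Among 12 other receptors of the family 8 were tested and none passed (edgeR, 0 of 8; none with an unadjusted p under 0.05). The accessory receptor endoglin, Eng, was at 63.8 ± 13.2 CPM, and the BMP and activin type I receptors Acvr1 and Bmpr1a at 39.2 ± 11.1 and 34.4 ± 27.0 CPM (SD, n = 12). Bmpr1a, with the smallest p of this list, was at 113 CPM in striatum 2 and at 45.0 and 22.2 CPM in striatum 1 and 3. Without striatum 2 it was at 27.3 ± 11.3 CPM over 11 libraries, and its log2 difference between striatum and cortex was 0.67. Of the other SMADs, the BMP-activated Smad1 and Smad5 were at 82.4 ± 18.1 and 52.6 ± 20.7 CPM, the inhibitory Smad6 at 5.57 ± 3.01 CPM, and Smad9 had 0 counts in all libraries. None of the 3 tested passed (edgeR, 0 of 3; none with an unadjusted p under 0.05). Per length, Smad1 at 13.2 CPM per kb lay between Ski and Smad3, and Smad5 at 7.09 CPM per kb lay close to Smad7 (6.99 and 6.95 CPM per kb without striatum 2).

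All 31 SMAD regulators and cofactors were tested and none passed (edgeR, 0 of 31). An unadjusted p under 0.05 was found for 2 of the 31 (1.82% of all genes). The endocytic adaptor Dab2 was at 332 ± 84.6 CPM, the co-repressor Ncor1 at 233 ± 44.6 and Pmepa1, a negative regulator of the pathway, at 206 ± 59.4 CPM (SD, n = 12). Fkbp1a, whose protein binds the type I receptor and keeps it inactive, had the smallest p of the list. Cortex held 206 ± 39.6 CPM, hippocampus 197 ± 18.9, cerebellum 148 ± 23.9 and striatum 131 ± 5.00 (SD, n = 3 each). All 3 striatum libraries lay below all 3 libraries of cortex and of hippocampus. In these pairs, 10.6% and 11.5% of all genes did not overlap, in either direction. The log2 differences of Fkbp1a were −0.65 (SE 0.19) and −0.59 (SE 0.19) and did not pass (edgeR, adjusted p = 0.80 and 0.95).

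Of 16 general TGF-beta target genes 11 were tested and none passed (edgeR, 0 of 11; none with an unadjusted p under 0.05). The transcription factor genes Junb, Myc and Klf10 were at 165 ± 53.7, 126 ± 34.5 and 110.4 ± 46.5 CPM (SD, n = 12). Runx1, another transcription factor with the smallest p of the list, averaged 103 ± 23.5 CPM in striatum against 59.4 ± 6.88 in cortex (SD, n = 3 each), a log2 difference of 0.79 (SE 0.31) that did not pass (edgeR, adjusted p = 0.80). Without striatum 2 this difference was 0.59.

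All 24 microglia genes known to depend on TGF-beta were tested and none passed (edgeR, 0 of 24). Csf1r was the 1 with an unadjusted p under 0.05 (1.82% of all genes). In cerebellum 23 of 24 lay above their cortex level, with a median log2 difference of 0.17, where 6214 of all 12217 genes lay above it with a median of 0.01. In hippocampus 18 of 24 did, and 5757 of all 12217 genes (median 0.17, against −0.02 over all genes). In striatum 19 of 24 did, and 5580 of all genes (median 0.20, against −0.06). The striatum count was not repeated without striatum 2. The 3 comparisons share the cortex libraries, and the 24 genes share all libraries, so these counts are descriptions. The 5 microglia markers, all among the 24, summed to 20852 to 21620 CPM in cortex. They summed to 22307 to 25431 CPM in hippocampus, 22548 to 27395 in striatum and 22200 to 29299 in cerebellum. The part of such shared shifts, or of the balance of long and short genes, in the counts was not tested. Csf1r, a growth factor receptor that microglia need to survive, was at 8238 ± 1324 CPM, and P2ry12, a nucleotide receptor of homeostatic microglia, at 4806 ± 749 CPM (SD, n = 12).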

How the data were processed

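RNA was measured in 12 libraries of sorted microglia by Smart-Seq v4 (poly(A) primed, unstranded) and Nextera XT. The values deposited by the authors are raw counts of reads per gene symbol. The submitters' processing notes list STAR 2.5.3a, HTSeq, Picard, Trim Galore 0.4.3 and the build mm10; the sources used here do not give the annotation or the strand setting. In GENCODE vM21 no exon of another gene shared bases with an exon of the 8 genes.

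The main tests used edgeR 4.0.16 in R 4.3.3 (filterByExpr by region with minimum count 10 and minimum total 15, TMM, 1 fit of 12 libraries with a mean per region, robust quasi-likelihood tests). P-values were adjusted by Benjamini-Hochberg over all 12217 genes, with a threshold of 0.05. DESeq2 1.42.0 and limma 3.58.1 (voom) were alternatives, with other size factors, no minimum count, the replicate number as a block and each library left out. Levels per length used the union of GENCODE exons; Lrrc33 had no length. Log2 CPM used a prior count of 2. On simulated counts for cerebellum against cortex (12217 genes), edgeR called 5% of genes changed 2-fold, 35.6% of those changed 4-fold and 65.7% of those changed 8-fold, with 2 false calls. The 200 changed genes were drawn from all genes tested. The simulated spread was estimated over the 12 libraries without regard to region, unlike that of the main fit. These shares therefore do not describe the 8 genes. Deviations from the region means correlated at 0.10 to 0.29 in the 3 same-numbered pairs of cortex and cerebellum. The 6 other pairs of those regions gave −0.23 to −0.0007. Centring on the region means makes these lean negative where the same-numbered pairs are positive, so they are no separate evidence. A fit of those regions alone with the number as a block was therefore added to the blocked fit of all 12 libraries, a choice made from the same data. No other pair of regions met this bar (all 3 over 0.1). Libraries with different numbers also correlated, at 0.20 for cortex 1 and hippocampus 2 and 0.19 for hippocampus 2 and cerebellum 1. These 3 libraries had the lowest balance of long and short genes, whose part in the pairing was not tested. Same-region libraries differed by more than sampling noise (chi-square per degree of freedom 33.8 to 97.5). As the reads carry no molecular identifiers, floors cover counting error only.

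The 8 genes, the lists and the tests were chosen with earlier results of these data known. The genes named from each list were the 3 of highest mean CPM and the 1 of smallest p over the 4 regions, and Tgfb2 and Tgfb3 always. The genes named for likeness were the 3 with the highest correlation, omitting ribosomal protein genes, RIKEN clones and predicted genes. Itgb8, Lrrc32 and Smad9 were named after their values were seen. A gene chosen by these rules is not reported here.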

Additional observations from a re-analysis of the deposited data

How the results depend on the processing

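Under 18 other settings chosen at the outset and 2 added after seeing the data (the balance of long and short genes as a covariate, and the fit without cortex 1, hippocampus 2 and cerebellum 1), 0 of the 8 genes passed in any comparison, and the difference of each gene between its highest and lowest region kept its direction. DESeq2 called 5 genes over the 4 regions, 5 in hippocampus against cortex, 13 in striatum against cortex, 7 in cerebellum against cortex, 2 in cerebellum against hippocampus and 3 in cerebellum against striatum, where edgeR called 0; none was among the 8. Leaving out a library moved the difference to between 0.06 and 0.25 for Tgfb1, 0.12 and 0.90 for Tgfbr1, 0.50 and 0.95 for Tgfbr2, 0.24 and 0.62 for Smad3, 0.34 and 1.16 for Smad7, and 0.10 and 0.87 for Ski. Without striatum 2 the correlation of Ski and Snrnp48 was 0.67. Of 22 other named genes, 2 changed direction when a library was left out: Acvr1 in hippocampus minus cortex ranged from −0.19 to 0.72, and Klf10 in striatum minus hippocampus from −0.0516 (without hippocampus 1; −0.01 without striatum 3) to 0.74; the cause was not tested.

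With the replicate number as a block, 0 genes passed over the 4 regions, and the difference was 0.68 for Tgfbr1, 0.78 for Tgfbr2 and 0.81 for Smad7. With cortex and cerebellum alone and the block, added after seeing the data, 0 genes passed and the Smad2 difference was 0.46. Same-numbered libraries of all regions correlated at −0.12 to 0.29 in their deviations (over 0.1 in 4 of 18 pairs, 3 of them cortex and cerebellum). Differently numbered libraries were over 0.1 in 2 of 36 pairs. What a shared number stands for is not stated in the labels. The design limits what can be seen: with 3 libraries a region, a doubling was seldom called in simulated counts.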
